A study of Mus musculus with 8 samples.

Results

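The tumor necrosis factor (TNF) superfamily of ligands and receptors was examined in bulk RNA-seq of mouse prostate after treatment with a TNF-antagonist. Members were the protein-coding genes of the deposited count table whose symbol begins with Tnfsf or Tnfrsf and a number, together with Tnf, Lta, Ltb, Ltbr, Cd40, Cd40lg, Fas, Fasl, Cd27, Cd70, Eda, Edar, Eda2r, Ngfr and Relt. This rule uses names only and found 46 of the 54532 genes in the table, 18 ligands and 28 receptors.

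Etanercept is a ligand trap built from the extracellular part of human TNF receptor 2 and an antibody Fc, and it binds TNF and lymphotoxin-alpha. Male NOD/ShiLtJ mice, an inbred strain that develops spontaneous autoimmunity, received etanercept at 4 mg/kg or PBS as the control by intraperitoneal injection 2 times per week for 5 weeks from an age of 25 weeks. Prostates of 4 control mice (control 1, 3, 65 and 69) and 4 etanercept mice (etanercept 17, 19, 50 and 52) were harvested at 30 weeks, and mice are named here by the animal number in their label. Diabetic and non-diabetic animals were pooled in the study, and the labels used here do not give the status of each mouse.

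Ligands of this superfamily are made as membrane proteins that act as trimers, and many are also shed in soluble form. Their receptors either carry a death domain, as TNFR1 and Fas do, or recruit TRAF adaptors, and both routes can feed the NF-kappaB and MAP kinase pathways. In tissue, most ligands come from activated lymphocytes and myeloid cells, while TNFR1 and the lymphotoxin-beta receptor are broadly present on epithelial and stromal cells. In bulk tissue, fewer cells of a type and less RNA per cell cannot be told apart.

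Counts per mouse summed to between 13760669 and 25178942, and the members took between 0.0476% (control 69) and 0.0734% (control 1) of them. Levels are given as CPM, counts scaled to a common library size with TMM factors, or, for comparison between genes, as CPM per kilobase of merged exon (FPKM). Markers of prostate secretory epithelium were abundant in all mice, with a mean log2(CPM + 1) over 4 ventral lobe genes between 7.998 (etanercept 17) and 13.9 (control 69), and over 7 luminal epithelial genes between 8.28 and 8.81. The content of neighboring tissue varied between mice: 6 seminal vesicle genes averaged 0.00 in control 3 and 7.53 in etanercept 17 on the same scale, and 7 skeletal muscle genes averaged 6.87 in control 3 and between 1.19 and 2.92 in the other mice. The part of these differences in the following results was not tested.

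The promoter sequences of 4 members are shown because the results turn on these genes. Tnf encodes the ligand that etanercept binds, Ltb lies beside it in the class III region of the H2 complex, Tnfrsf1b encodes the mouse counterpart of the receptor from which the trap was made, and Tnfrsf12a had the smallest p of the members in the edgeR test (Tnfsf10 in DESeq2). Sequences are from RefSeq (GRCm38.p6), where 36 of the 46 members had a promoter entry, and read 5′ to 3′ on the strand of the gene, ending where the first annotated exon begins. Capitals mark a match to the NF-kappaB consensus in Ltb and to the interferon regulatory factor (IRF) motif, GAAA repeated after any 2 bases and here read on the other strand, in Tnfrsf1b. The windows are chr17:35202008-35202257 (minus strand) for Tnf, chr17:35194257-35194438 (plus strand) for Ltb, chr4:145246871-145247120 (minus strand) for Tnfrsf1b and chr17:23677469-23677699 (minus strand) for Tnfrsf12a.
Tnf: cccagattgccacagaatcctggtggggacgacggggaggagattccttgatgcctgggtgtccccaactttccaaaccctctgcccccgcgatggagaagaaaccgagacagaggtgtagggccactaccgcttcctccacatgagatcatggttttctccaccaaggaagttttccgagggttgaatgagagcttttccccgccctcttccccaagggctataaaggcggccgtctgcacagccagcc
Ltb: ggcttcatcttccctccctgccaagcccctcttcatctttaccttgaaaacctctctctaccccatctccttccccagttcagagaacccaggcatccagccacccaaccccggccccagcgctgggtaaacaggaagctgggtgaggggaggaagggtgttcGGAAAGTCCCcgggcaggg
Tnfrsf1b: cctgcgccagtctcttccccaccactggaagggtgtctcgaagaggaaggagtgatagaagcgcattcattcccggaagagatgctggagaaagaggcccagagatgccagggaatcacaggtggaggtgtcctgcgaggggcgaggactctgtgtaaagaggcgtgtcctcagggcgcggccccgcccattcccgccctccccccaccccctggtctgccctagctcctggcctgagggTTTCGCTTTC
Tnfrsf12a: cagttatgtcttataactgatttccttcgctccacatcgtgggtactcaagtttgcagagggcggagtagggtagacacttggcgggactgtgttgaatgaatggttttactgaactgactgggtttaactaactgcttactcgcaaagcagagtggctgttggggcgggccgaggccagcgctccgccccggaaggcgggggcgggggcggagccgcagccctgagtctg

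Both strands of the 250 bases before each RefSeq start were searched for 3 motifs. The NF-kappaB consensus stood in 2 of 36 members (5.56%), Ltb at position -87 from the RefSeq start and Tnfrsf8 at a pair of overlapping positions, and in 7.25% of all 32851 promoters. The AP-1 motif TGANTCA stood in 4 members, Fas, Tnfrsf8, Tnfsf13 and Tnfsf14 (11.1%), against 6.75% of all promoters. The IRF motif stood in 3 members, Tnfrsf1b at -10, Tnfrsf14 at -64 and Tnfrsf17 at -101 (8.33%), against 2.98% of all promoters. The matches of Tnfrsf14 and Tnfsf13 lie inside the gene as GENCODE annotates it, since their RefSeq start is 486 and 230 bases after the GENCODE start. These are matches of letters in short windows and do not show that a factor binds there.

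Several members are neighbors in the genome. With gaps of at most 200 kb, 22 of the 46 fell into 9 clusters. Ltb, Tnf and Lta lie within 10913 bases at chr17:35194439-35205351 (GRCm38), Cd27, Ltbr and Tnfrsf1a within chr6:125232622-125362484, and Tnfrsf26 with the TRAIL decoy receptors Tnfrsf22 and Tnfrsf23 within chr7:143607659-143685872. The other clusters pair or group Tnfsf9, Cd70 and Tnfsf14, Tnfsf4 and Tnfsf18, Tnfsf13 and Tnfsf12, Tnfsf15 and Tnfsf8, Tnfrsf1b and Tnfrsf8, and Tnfrsf4 and Tnfrsf18. The counts of 7 members with exons that overlap another gene are uncertain. Tnfsf12 and Tnfsf13 share exons with the read-through gene Tnfsfm13, and Cd27 with a microRNA gene, on the same strand, while Tnfrsf18, Tnfrsf23, Tnfrsf26 and Tnfsf9 overlap non-coding genes on the other strand, as part of Tnfsf13 does, which counting without strand cannot separate.

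Receptors were the abundant side of the superfamily in this tissue. The median of mean FPKM over 8 mice was 2.05 for receptors and 0.442 for ligands, and 18 of 28 receptors but 4 of 18 ligands had a mean above 1 FPKM. Tnfrsf1a (TNFR1) was highest, at 32.0 FPKM, followed by Tnfrsf21 (death receptor 6) at 30.8 and Ltbr, the receptor of lymphotoxin-beta heterotrimers, at 30.2, levels that overlapped between mice and are not ordered beyond their spread. The other members above 10 FPKM were Ngfr (the p75 neurotrophin receptor) at 19.1, Ltb at 15.5 and Tnfsf12 (TWEAK) at 12.8. At the low end, 24 members were under 1 FPKM, and 15 members had 0 counts in at least 1 mouse. Tnfsf18, which encodes the GITR ligand, had 0 counts in every mouse, and a count of 0 allows between 0.108 and 0.211 CPM, depending on the depth of the mouse. Intervals and floors of this kind cover counting error only.

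**Figure D1:**
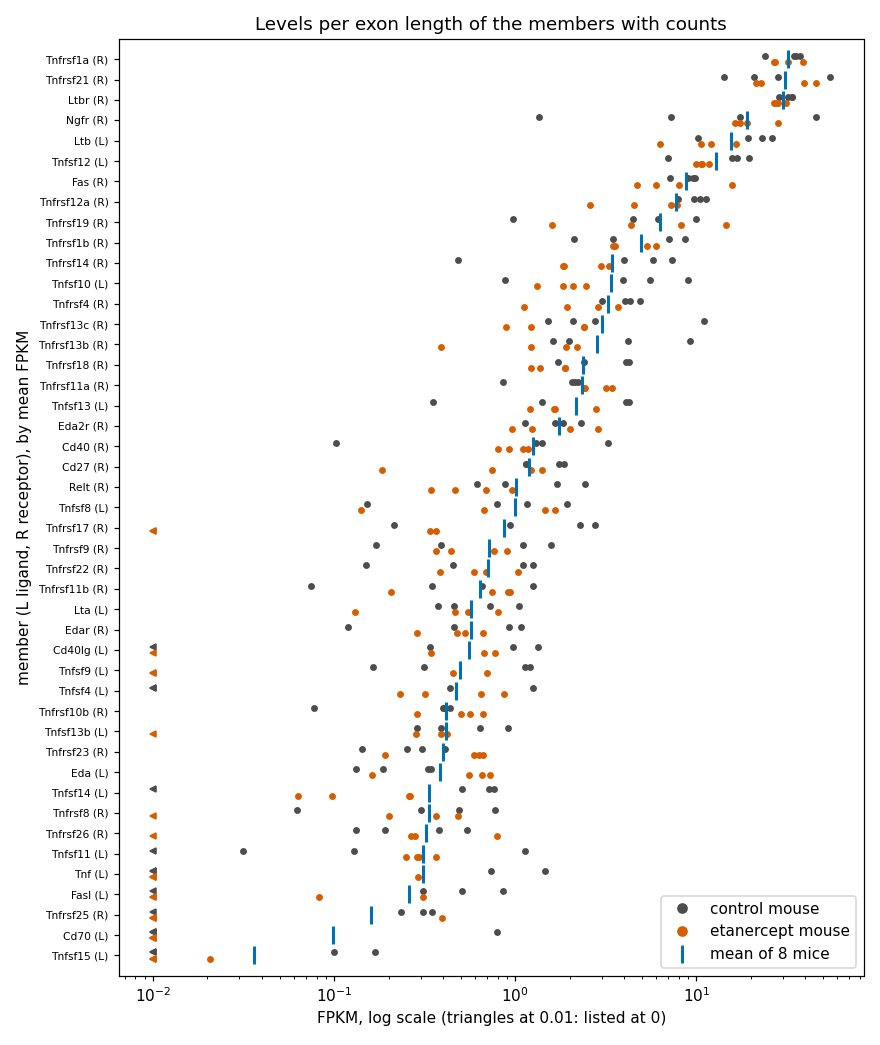
Level of the 45 members with counts, as FPKM on a log axis, with 1 point per mouse (grey control, orange etanercept), a bar at the mean of 8 mice and triangles for mice at 0. Tnfrsf1a, Tnfrsf21 and Ltbr are at the top with means of 30.2 to 32.0 FPKM, and Tnf lies near the bottom at 0.310.

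The 8 mice differed widely in most members. Among the 31 tested members with counts in every mouse, the median of the highest over the lowest CPM was 8.06. Control 3 was the highest mouse for 16 of the 38 tested members and control 1 for 8, while control 69 was the lowest for 12, so that both extremes were mostly control mice. The median biological coefficient of variation of the tested members was 0.662, against 0.386 over all 15472 tested genes.

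**Figure D2:**
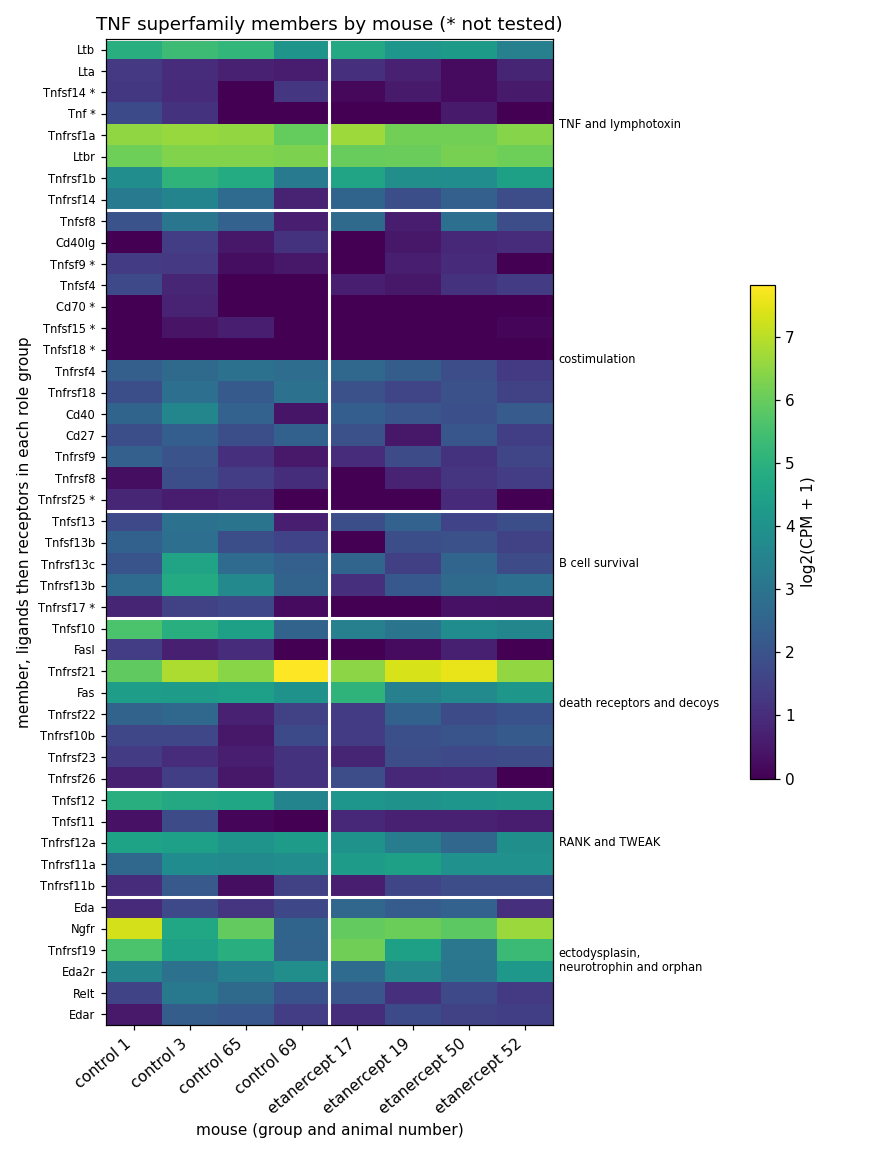
Heat map of log2(CPM + 1) for the 46 members (rows, grouped by role, ligands first) in the 8 mice (columns); an asterisk marks the 8 members that did not pass the edgeR filter on low counts. The broad bright rows are receptors such as Tnfrsf1a, Ltbr, Tnfrsf21 and Ngfr, and control 3 is the highest mouse for 16 tested members.

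Whether blocking TNF in these mice altered the expression of the superfamily was then compared between the groups. In total, 38 members passed the low-count filter of edgeR and entered its quasi-likelihood test, and none passed an adjusted p of 0.05, with a smallest adjusted p of 0.739. The same test called 0 of 15472 genes (0.0%). Before adjustment, 4 of 38 members reached a p of 0.05 or less, all with lower values in etanercept mice, where 6.62% of all tested genes did, 3.63% lower and 2.99% higher. The 4 were Tnfrsf12a, Tnfsf10, Tnfrsf13b and Ltb. DESeq2 also called 0 of 43 members at an adjusted p of 0.05 (smallest adjusted p 0.487, Tnfsf10), against 21 of 18329 genes (0.115%). Before adjustment, 8 of the 45 members with a DESeq2 p were at 0.05 or less, all lower. Of all genes 5.84% were, in both directions together. These 8 were the same 4 and Tnfrsf13c, Tnfrsf18, Relt and Tnfrsf17.

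Without regard to a test, 27 of the 38 members had a log2 fold change below 0, where 51.0% of all genes did. The median log2 fold change was -0.40 over the members and -0.01 over all genes. It was -0.46 over 12 ligands and -0.19 over 26 receptors. By role, the median was -1.18 for the B cell survival group (4 of 4 below 0), -0.59 for the costimulatory group (8 of 9), -0.32 for the TNF and lymphotoxin group (6 of 6), -0.11 for the RANK and TWEAK group, 0.04 for the death receptors and decoys and 0.10 for the ectodysplasin, neurotrophin and orphan group. Without control 3 the median of all members was -0.11 and no member reached 0.05 before adjustment. Without etanercept 19 no member did either, without control 65 or etanercept 50 there were 2, and without control 69 there were 7. The shares of all genes in these left-out runs are not given, so the counts are not read as particular to the members.

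**Figure D3:**
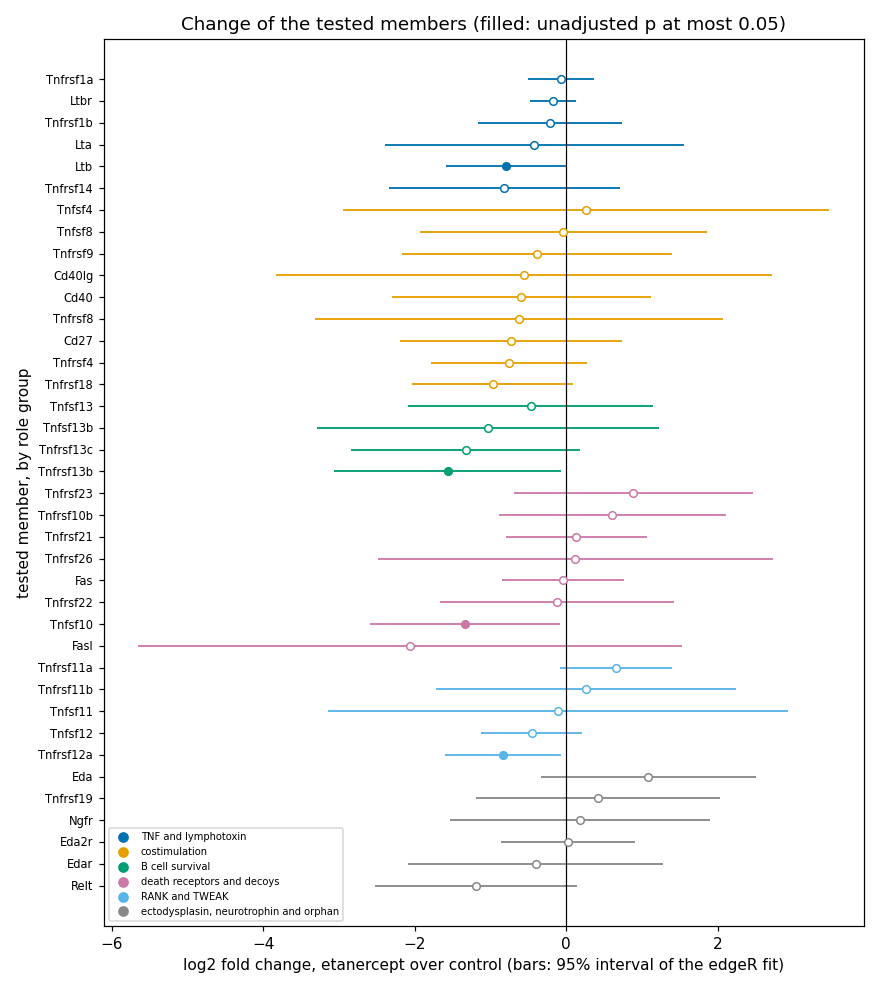
Log2 fold change of etanercept over control for the 38 tested members with the 95% interval of the edgeR fit, colored by role; filled points reached 0.05 before adjustment. The 4 filled points (Ltb, Tnfrsf13b, Tnfsf10 and Tnfrsf12a) lie below 0, and the intervals of the other members cross it.

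Of the TNF and lymphotoxin group, the target of the drug was among the least counted genes. Tnf had 66 counts in control 1, 18 in control 3 and 0 in control 65 and control 69. In the treated mice, Tnf had 8 counts in etanercept 50 and 0 in etanercept 17, 19 and 52. It was thus seen in 2 of 4 control mice and 1 of 4 etanercept mice, the groups overlapped, and it did not pass the low-count filter of edgeR (exact permutation test on log2(CPM + 1), p = 0.429). DESeq2, run without that filter, gave a log2 fold change of -2.94 with an SE of 2.47 (DESeq2 adjusted p = 0.902). The trap binds TNF protein, which RNA-seq does not measure.

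Lta, which encodes lymphotoxin-alpha, was between 0.521 and 1.45 CPM in control mice and between 0.179 and 1.11 CPM in etanercept mice. Its log2 fold change was -0.42 (SE 0.88, edgeR adjusted p = 0.979), with a 95% interval of -2.40 to 1.55, and it was -0.77 without etanercept 17 and -0.11 without etanercept 50. Ltb encodes lymphotoxin-beta, which anchors lymphotoxin-alpha at the surface of lymphocytes, and was by far the most abundant ligand of this group. In control 1, 3, 65 and 69 it stood at 29.3, 39.8, 34.8 and 15.45 CPM, and in etanercept 17, 19, 50 and 52 at 25.0, 16.04, 18.2 and 9.49 CPM. The 3 highest mice were controls, but control 69 lay below 3 of the 4 treated mice, so the groups overlapped. The log2 fold change of Ltb was -0.79 (SE 0.35, edgeR adjusted p = 0.743), and it stayed between -1.03 and -0.61 when each mouse was left out.

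Both TNF receptors were present in every mouse, and the groups overlapped for both. Tnfrsf1a was at 89.6, 96.9, 91.4 and 61.75 CPM in control 1, 3, 65 and 69 and at 101.1, 70.3, 69.7 and 83.2 CPM in etanercept 17, 19, 50 and 52. Its highest mouse was treated and its lowest was a control, and the log2 fold change was -0.07 with an interval of -0.50 to 0.37 (SE 0.19, edgeR adjusted p = 0.99). Tnfrsf1b (TNFR2, mainly on leukocytes and endothelium) was at 13.2, 32.9, 27.1 and 8.10 CPM in the control mice and 22.8, 13.6, 13.2 and 20.5 CPM in the etanercept mice, in the same order. The 4 treated values lay inside the range of the controls, with a log2 fold change of -0.21 and an interval of -1.16 to 0.73 (SE 0.42, edgeR adjusted p = 0.976); without control 3 it was 0.12. The log2 ratio of Tnfrsf1b over Tnfrsf1a was -2.18 ± 0.645 in controls and -2.17 ± 0.165 in etanercept mice (SD, n = 4; exact permutation p = 1).

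Ltbr varied least of these genes. It stood at 67.4, 79.4, 79.0 and 75.9 CPM in control 1, 3, 65 and 69, and at 62.8, 64.7, 73.2 and 66.7 CPM in etanercept 17, 19, 50 and 52. Only control 1 reached into the treated range, and the log2 fold change was -0.17 (SE 0.13, edgeR adjusted p = 0.868), with an interval of -0.47 to 0.13. With the GC trend removed, the log2 fold change of Ltbr was -0.03. The log2 ratio of Ltb over Ltbr was -1.39 ± 0.567 in controls and -1.97 ± 0.571 with etanercept (SD, n = 4; exact permutation p = 0.229). Tnfrsf14 (HVEM), a receptor of LIGHT and lymphotoxin-alpha, was between 0.695 and 10.54 CPM in controls and between 2.63 and 4.72 CPM with etanercept, and its ligand Tnfsf14 (LIGHT) was at or below 1.41 CPM in all mice and did not pass the edgeR filter.

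**Figure D4:**
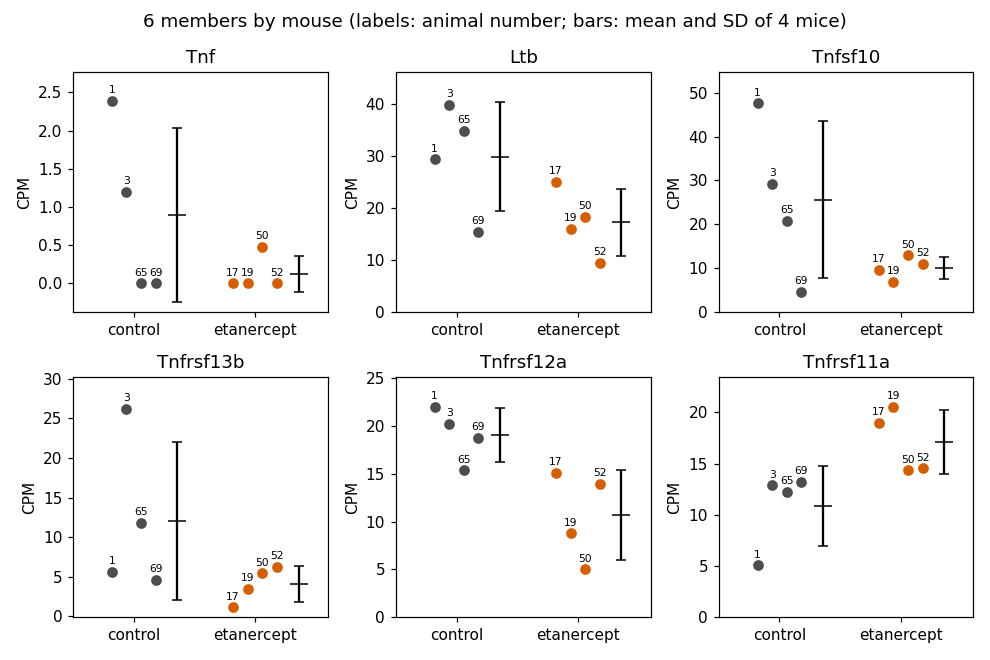
CPM of Tnf, Ltb, Tnfsf10, Tnfrsf13b, Tnfrsf12a and Tnfrsf11a in each mouse, labelled by animal number, with the mean and SD of 4 mice per group beside the points. Tnfrsf12a and Tnfrsf11a are the 2 panels without overlap between the groups, and Tnf is at 0 in 5 of 8 mice.

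The costimulatory group holds ligand and receptor pairs that act between T cells and antigen-presenting cells. None of its 9 tested members reached 0.05 in edgeR before adjustment. Tnfrsf18 (GITR), high on regulatory T cells, had the smallest p, with 2.64, 6.27, 3.66 and 6.48 CPM in control 1, 3, 65 and 69 and 2.85, 2.09, 2.87 and 1.87 CPM in etanercept 17, 19, 50 and 52. Here 3 controls lay above all treated mice and control 1 lay among them, with a log2 fold change of -0.97 (SE 0.48, edgeR adjusted p = 0.769).

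Its neighbor Tnfrsf4 (OX40), also carried by activated and regulatory T cells, was at 4.12, 5.53, 6.69 and 5.90 CPM in the same order of control mice and 5.07, 3.90, 2.63 and 1.52 CPM in the etanercept mice. Control 1 again lay within the treated range, and the log2 fold change was -0.76 (SE 0.46, edgeR adjusted p = 0.822). Mean levels of the other receptors ranged from 0.161 FPKM for Tnfrsf25 (DR3), which did not pass the edgeR filter, to 1.26 FPKM for Cd40, the receptor through which B cells and macrophages receive T cell help. Between them were Cd27 at 1.19, Tnfrsf9 (4-1BB) at 0.712 and Tnfrsf8 (CD30) at 0.334 FPKM. Cd40 was at 0.347 CPM in control 69 and 11.1 CPM in control 3, a range that held all 4 treated mice (2.75 to 4.02 CPM).

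The costimulatory ligands were scarce. Tnfsf8 (CD30 ligand) was the highest at 0.994 FPKM, with 0.579 to 7.33 CPM in controls and 0.535 to 6.28 CPM in etanercept mice. Cd40lg (CD40 ligand) was at 0 in 1 mouse of each group and at most 1.67 CPM, and Tnfsf4 (OX40 ligand) was at 0 in 2 controls and at most 2.31 CPM. Tnfsf9 (4-1BB ligand) reached 1.55 CPM and did not pass the edgeR filter. Cd70 was counted in control 3 alone (0.667 CPM) and Tnfsf15 (TL1A) in 3 mice, and neither passed the filter.

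The B cell survival group comprises the cytokines BAFF and APRIL and their receptors, and it had the lowest median of the 6 groups. Tnfrsf13b (TACI, a receptor of both cytokines on B cells and plasma cells) was at 5.64, 26.2, 11.8 and 4.57 CPM in control 1, 3, 65 and 69 and at 1.11, 3.48, 5.44 and 6.24 CPM in etanercept 17, 19, 50 and 52. The 2 highest mice were control 3 and control 65, while the other controls lay within the treated range. Its log2 fold change was -1.57 (SE 0.67, edgeR adjusted p = 0.743), and without control 3 it was -0.85.

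Tnfrsf13c (the BAFF receptor of mature B cells) was at 3.11, 22.5, 5.63 and 4.28 CPM in control 1, 3, 65 and 69, and at 4.89, 1.82, 4.90 and 2.50 CPM in the etanercept mice. Control 3 stood far above the other 7 mice. The log2 fold change was -1.33 (SE 0.67, edgeR adjusted p = 0.774) with all mice and -0.30 without control 3. Tnfrsf17 (BCMA), a plasma cell receptor, was at 0.759, 1.87, 2.25 and 0.174 CPM in the control mice and at 0, 0, 0.299 and 0.277 CPM in the etanercept mice, below the edgeR filter. Of the cytokines, Tnfsf13 (APRIL) was between 0.579 and 6.97 CPM in controls and between 1.97 and 4.55 CPM with etanercept, and Tnfsf13b (BAFF) was between 1.97 and 6.27 CPM in controls and between 0 and 2.87 CPM with etanercept.

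In the group of death receptors and decoys, the ligand Tnfsf10 (TRAIL) had the widest range of the tested ligands as a difference in CPM, though not as a ratio. It stood at 47.6, 29.2, 20.85 and 4.63 CPM in control 1, 3, 65 and 69 and at 9.61, 6.95, 13.0 and 11.0 CPM in etanercept 17, 19, 50 and 52. The 3 highest mice were controls, and control 69 was the lowest of all 8. Its log2 fold change was -1.34 (SE 0.56, edgeR adjusted p = 0.739), and it was -1.68 without control 69 and -0.86 without control 1. Tnfrsf10b, the TRAIL receptor with a death domain, was lower in abundance, at 0.415 FPKM, and had 2.17, 2.20, 0.423 and 2.37 CPM in the controls and 1.57, 2.73, 3.05 and 3.60 CPM in the etanercept mice. The log2 ratio of Tnfsf10 over Tnfrsf10b was 2.96 ± 1.52 in controls and 1.58 ± 0.422 with etanercept (SD, n = 4; exact permutation p = 0.143).

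Fasl, the ligand of cytotoxic lymphocytes, was at 1.66, 0.600, 0.986 and 0 CPM in control 1, 3, 65 and 69 and at 0, 0.160, 0.598 and 0 CPM in etanercept 17, 19, 50 and 52 (log2 fold change -2.06, SE 1.602, edgeR adjusted p = 0.868). The value was -3.71 without etanercept 50 and -1.43 without control 1. Its receptor Fas was at 19.8, 18.5, 20.15 and 14.8 CPM in the control mice and at 32.5, 9.68, 12.4 and 16.6 CPM in the etanercept mice, with both extremes in treated mice. Its log2 fold change was -0.04, with an interval of -0.85 to 0.77 (SE 0.36, edgeR adjusted p = 0.997). Tnfrsf21 was at 58.3, 116, 85.7 and 224 CPM in the control mice and 87.3, 162, 188 and 92.9 CPM in the etanercept mice, with both extremes in controls (log2 fold change 0.13, SE 0.41, edgeR adjusted p = 0.99). The receptors of the chromosome 7 cluster were low: Tnfrsf22 at 0.709, Tnfrsf23 at 0.398 and Tnfrsf26 at 0.323 FPKM. Tnfrsf23 was at 0.564 to 1.63 CPM in controls and at 0.757, 2.62, 2.33 and 2.50 CPM in etanercept 17, 19, 50 and 52.

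The RANK and TWEAK group held both members whose groups did not overlap. Of all tested genes, 4.94% had no overlap, 2.53% lower and 2.41% higher with etanercept, and of 38 members 1 did in each direction. Tnfrsf12a (Fn14, the inducible receptor of TWEAK on epithelial and stromal cells) was at 21.95, 20.2, 15.36 and 18.75 CPM in control 1, 3, 65 and 69 and at 15.08, 8.77, 5.02 and 13.93 CPM in etanercept 17, 19, 50 and 52. Every treated mouse lay below every control, although control 65 and etanercept 17 were nearly equal. The mean was 19.1 ± 2.80 CPM in controls and 10.7 ± 4.68 CPM with etanercept (SD, n = 4), and the log2 fold change was -0.83 (SE 0.34, edgeR adjusted p = 0.739). It stayed between -1.04 and -0.60 when each mouse was left out. Its ligand Tnfsf12 was between 10.6 and 29.4 CPM in controls and between 15.1 and 17.7 CPM with etanercept (log2 fold change -0.46, SE 0.30, edgeR adjusted p = 0.83). This value was -0.69 without control 69 and -0.31 without control 1. The log2 ratio of Tnfsf12 over Tnfrsf12a was 0.14 ± 0.618 in controls and 0.66 ± 0.626 with etanercept (SD, n = 4; exact permutation p = 0.343).

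Tnfrsf11a (RANK, the receptor for RANK ligand on osteoclast precursors and some epithelia) lay the other way. It was at 5.10, 12.87, 12.26 and 13.25 CPM in control 1, 3, 65 and 69 and at 18.99, 20.54, 14.35 and 14.55 CPM in etanercept 17, 19, 50 and 52. All treated mice were above all controls, and control 1 was well below the other controls. The log2 fold change was 0.66 (SE 0.33, edgeR adjusted p = 0.77), and 0.40 without control 1. The exact permutation test on log2(CPM + 1) gave p = 0.0286 for both Tnfrsf12a and Tnfrsf11a, the smallest value that 4 against 4 mice can give. Groups without overlap always give this value, so the p only restates the separation for which these members were picked. Tnfrsf11a was also free of overlap under every other scaling and filter tried with all 8 mice, while the groups of Tnfrsf12a overlapped with upper-quartile factors, with genes of at least 10 counts in every mouse, and with the length or GC trend removed. RANK ligand, Tnfsf11, was at most 2.53 CPM in controls and between 0.554 and 0.815 CPM with etanercept, and its decoy receptor Tnfrsf11b (osteoprotegerin) was between 0.211 and 3.53 CPM across the mice, without a separation of the groups.

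The last group, ectodysplasin, neurotrophin and orphan receptors, held no member that reached 0.05 before adjustment. Eda (ectodysplasin A, a ligand of skin appendage development) was at 0.904, 2.33, 1.27 and 2.26 CPM in control 1, 3, 65 and 69 and at 4.95, 3.797, 4.48 and 1.11 CPM in the etanercept mice. Here 3 treated mice lay above all controls and etanercept 52 lay among them (log2 fold change 1.08, SE 0.64, edgeR adjusted p = 0.807). Its receptor Edar was between 0.434 and 3.93 CPM in controls and between 1.05 and 2.41 CPM with etanercept, and the log2 ratio of Eda over Edar was -0.21 ± 0.658 and 0.64 ± 0.802 (SD, n = 4; exact permutation p = 0.143). Eda2r, the receptor of the other ectodysplasin isoform, was between 5.65 and 16.9 CPM in all mice.

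Ngfr differed most among the members above 10 FPKM as a ratio of the highest to the lowest mouse (33.6), at 157, 24.9, 60.2 and 4.69 CPM in control 1, 3, 65 and 69 and at 59.8, 65.9, 56.6 and 97.8 CPM in etanercept 17, 19, 50 and 52. The controls enclosed the treated mice, and the log2 fold change of 0.18 had an interval of -1.54 to 1.89 (SE 0.77, edgeR adjusted p = 0.995). Tnfrsf19 (TROY) was at 47.3, 21.1, 29.1 and 4.63 CPM in the controls and at 69.1, 20.6, 7.53 and 39.0 CPM in the etanercept mice, again with overlap (log2 fold change 0.41, SE 0.72, edgeR adjusted p = 0.967). Relt, a receptor of hematopoietic tissue, was at 2.02, 8.002, 5.57 and 2.89 CPM in the control mice and at 3.15, 1.12, 2.27 and 1.52 CPM in the etanercept mice, with a log2 fold change of -1.19 (SE 0.60, edgeR adjusted p = 0.772), and -0.79 without control 3.

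In all, 17 log2 ratios between members were formed, ligand over receptor with 1 exception, TNFR2 over TNFR1. None passed an adjusted p of 0.05 over the 17 (exact permutation test, two-sided, smallest adjusted p 0.68). The 6 with more than 3 counts of both genes in every mouse all overlapped between the groups, and 5 of them are given above. The remaining one, Tnfsf13 over Tnfrsf13b, was -1.33 ± 0.58 in controls and -0.24 ± 0.946 with etanercept (SD, n = 4; exact permutation p = 0.143).

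Since many members mark leukocytes, their levels were set beside the content of cell types, measured per mouse as the mean log2(CPM + 1) over a marker list. The score of 10 T cell genes was 3.53 ± 0.547 in controls and 2.84 ± 0.240 with etanercept (SD, n = 4; exact permutation p = 0.0571), that of 10 macrophage genes 4.85 ± 0.564 and 4.28 ± 0.246 (exact permutation p = 0.114), and that of 10 B cell genes 3.502 ± 0.914 and 3.07 ± 0.848 (exact permutation p = 0.543). Of 17 marker lists none differed at an adjusted p of 0.05 (smallest adjusted p 0.389), and no defining gene of the T cell, B cell or macrophage lists was at 0 in all mice. The group means of other lists were as far apart or further: 8 smooth muscle genes averaged 8.49 ± 0.536 in controls and 9.30 ± 0.386 with etanercept (SD, n = 4; exact permutation p = 0.0857), and 7 adipocyte genes 3.03 ± 1.22 and 1.22 ± 0.368 (exact permutation p = 0.0857). The score of 7 plasma cell genes, Tnfrsf17 among them, was 6.04 ± 0.721 and 5.36 ± 0.383 (SD, n = 4; exact permutation p = 0.229), and that of 6 NK cell genes 1.41 ± 0.293 and 0.879 ± 0.466 (exact permutation p = 0.114). The ranges of the T cell score were 2.87 to 4.20 in controls and 2.65 to 3.17 with etanercept, and those of the B cell score 2.90 to 4.86 and 2.27 to 3.98.

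Among 17 relations between a member and a marker score across the 8 mice, 1 passed an adjusted p of 0.05. Tnfrsf13c went with the B cell score (Pearson r = 0.917, exact permutation p = 0.00131, adjusted p = 0.0223; Spearman rho = 0.881, exact permutation p = 0.00724, adjusted p = 0.123). Its r was 0.869 without control 3 and etanercept 17, the mice farthest from the median score, and 0.993 within the controls and 0.934 within the etanercept mice. With 1 mouse left out, r stayed between 0.827 (without control 3) and 0.965, and the adjusted p was above 0.05 without control 1 (0.0843), control 3 (0.279), etanercept 19 (0.0607), etanercept 50 (0.0506) or etanercept 52 (0.0607). Ltb followed the T cell score with r = 0.842 (exact permutation p = 0.00831, adjusted p = 0.0706; rho = 0.833, p = 0.0154), and r was 0.696 without control 3 and control 65. With the B cell score Ltb had r = 0.710 (exact permutation p = 0.046, adjusted p = 0.211; rho = 0.690, p = 0.0694), or 0.549 without control 3 and etanercept 17. Within the groups, r of Ltb was 0.925 in controls and 0.421 in etanercept mice with the T cell score, and 0.578 and 0.873 with the B cell score.

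**Figure D5:**
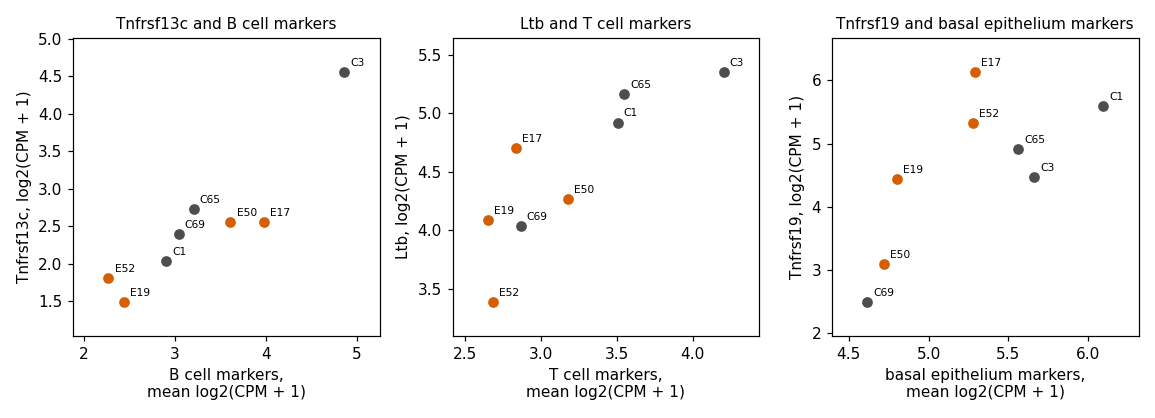
Level of Tnfrsf13c, Ltb and Tnfrsf19 (vertical axes, log2(CPM + 1)) against the B cell, T cell and basal epithelial marker scores (horizontal axes, mean log2(CPM + 1)) in the 8 mice (C control, E etanercept). Control 3 holds the top right corner for the lymphocyte genes, and r is 0.917, 0.842 and 0.711 from left to right.

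Tnfrsf19 had r = 0.711 with the basal epithelial score (exact permutation p = 0.0496, adjusted p = 0.211; rho = 0.714, p = 0.0576), and 0.521 without control 1 and control 69. After the group means were removed its r was 0.91. In contrast, Tnfrsf13b had r = 0.372 with the B cell score (exact permutation p = 0.362), with 0.911 in the controls and -0.617 in the etanercept mice, and Tnfrsf1b had r = 0.539 with the macrophage score (exact permutation p = 0.165). The T cell members Tnfrsf4, Tnfrsf18 and Cd27 had r between 0.445 and 0.553 with the T cell score, each with an adjusted p of 0.343 or more. After the group means were removed, r was -0.038 for Tnfrsf4, 0.115 for Tnfrsf18 and 0.252 for Cd27. In the same order, r was -0.098, -0.015 and -0.096 within the controls and -0.0035, 0.794 and 0.765 within the etanercept mice.

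Other genes of the pathway were read from 3 lists. Of 25 receptor-proximal adaptors and kinases 0 passed an adjusted p of 0.05 in edgeR and in DESeq2, and 1, lower with etanercept, reached 0.05 in edgeR before adjustment, against 3.63% of all genes that did so with lower values, and the median log2 fold change was 0.10. That gene was Map3k5 (ASK1, a stress kinase), at 21.7 ± 3.48 CPM in controls and 14.6 ± 1.66 CPM with etanercept (SD, n = 4; edgeR adjusted p = 0.739), without overlap of the groups. The next by p were Tab3, at 26.4 ± 0.842 and 33.4 ± 3.90 CPM, higher in every etanercept mouse than in any control, and Traf6, at 33.7 ± 12.1 and 48.2 ± 7.68 CPM, with overlap.

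Of 16 NF-kappaB subunits, kinases and inhibitors, 0 passed in either tool and 2, both lower, reached 0.05 in edgeR before adjustment, where 3.63% of all genes did so in this direction (median log2 fold change -0.23, against -0.01 over all genes). They were Nfkbia, the inhibitor IkappaB-alpha that NF-kappaB itself induces, at 69.99 ± 17.4 and 49.1 ± 5.43 CPM (SD, n = 4; edgeR adjusted p = 0.739), and Bcl3, at 11.5 ± 5.67 and 5.48 ± 1.26 CPM (edgeR adjusted p = 0.743). Rela, the p65 subunit, was at 71.96 ± 9.04 and 58.6 ± 11.1 CPM.

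Of 32 genes known to be induced by TNF, 25 were tested, 0 passed in either tool, and 7, all lower, reached 0.05 in edgeR before adjustment, where 3.63% of all genes were lower and 2.99% higher at this limit. The log2 fold change was below 0 in 17 of the 25, with a median of -0.38, against -0.01 over all genes. The list was chosen with earlier results of these data known, so these counts do not test whether TNF targets as a class were lower. Cebpb (a transcription factor of acute-phase genes) was at 34.7 ± 9.13 CPM in controls and 18.6 ± 1.81 CPM with etanercept (log2 fold change -0.90, edgeR adjusted p = 0.739), without overlap of the groups. Socs3, the feedback inhibitor of cytokine receptors, was at 14.8 ± 3.60 and 6.30 ± 1.26 CPM (log2 fold change -1.23, edgeR adjusted p = 0.739), also without overlap. Ccl5, a T cell chemokine, was at 60.7 ± 54.1 and 17.3 ± 5.58 CPM (log2 fold change -1.81, edgeR adjusted p = 0.739), with overlap.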

How the data were processed

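Poly(A) RNA of 8 frozen prostates was sequenced for the study by the company Novogene. Per the labels and the submitters' processing notes, reads were handled with fastp, aligned to mm10 with STAR 2.6.1d and counted with featureCounts 1.5.0-p3, and the study used DESeq2 1.26.0. The annotation used for counting is not given in the sources used here. The deposited values are raw counts per Ensembl gene. Symbols, exons and lengths came from GENCODE M21 (GRCm38), which held 54495 of 54532 identifiers.

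Counts were fitted with edgeR 4.0.16 (R 4.3.3; quasi-likelihood test, TMM, filterByExpr with a minimum count of 10), which tested 15472 genes, with Benjamini-Hochberg adjustment over all of them and a threshold of 0.05. The common biological coefficient of variation was 0.547. The fit was tested on simulated data with known changes. FPKM is CPM per kilobase of merged exons. Ratios, marker scores and correlations used log2(CPM + 1) and two-sided exact permutation tests over the 70 assignments of mice, or over pairings for correlations. DESeq2 1.42.0, other normalizations, filters, pseudocounts, length and GC trends, and left-out mice were tried. A fold change with its SE and adjusted p was given for Tnf, Lta, Ltb, Tnfrsf1a, Tnfrsf1b and Ltbr, and in each of 6 role groups for the 2 tested members with the smallest edgeR p and the 2 with the highest mean FPKM. Other members are given by level and range, some of them by mouse, which was decided after their values were seen. From each pathway list the 3 genes with the smallest edgeR p were named. The members, lists and tests were chosen with earlier results of these data known.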

Additional observations from a re-analysis of the deposited data

Results flagged for a closer look

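Dixon's test at the 95% level marked a mouse far from the 3 others of its group in 7 of 122 sets of 4 values, and chance marks about 1 in 20. Control 65 had the lowest Tnfrsf10b among controls, at 0.509 on the log2(CPM + 1) scale, where the next was 1.66. Control 1 had the lowest Tnfrsf11a among controls, at 2.61, where the next was 3.73. Etanercept 17 had the lowest Tnfrsf23 among the treated mice, at 0.813, where the next was 1.74. The log2 ratio of Ltb over Ltbr was lowest in control 69, at -2.23, where the next control was at -1.18. The B cell score of control 3 was 4.86 and that of the next control 3.20, and its skeletal muscle score was 6.87 against 2.13. The ventral lobe score of etanercept 17 was 7.998, where the next treated mouse was at 12.8.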

How the results depend on the processing

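No member passed an adjusted p of 0.05 under any alternative run, and no ratio or marker score did either. DESeq2 called 21 genes in all. Members that reached 0.05 before adjustment numbered 8 with DESeq2, 6 of the 23 with at least 10 counts in every mouse, 2 with the length trend removed, 2 with the GC trend removed, 2 with animal numbers under 20 or over 49 as a block, and 0 to 7 when each mouse was left out. Members without overlap numbered 1 with upper-quartile factors, with at least 10 counts in every mouse, or with the length or GC trend removed, and 2 to 9 when a mouse was left out (9 without control 69, 5 without control 1 or etanercept 17). Apart from DESeq2, the shares of all genes under these settings are not given, and groups of fewer mice separate more easily. These counts are therefore not read as particular to the members. The median log2 fold change of the members was -0.50 with library size alone, -0.29 with the length trend removed and -0.28 with the animal number block, and -0.59 (without control 69) to -0.11 (without control 3) when a mouse was left out. Relations with marker scores past the threshold were 2 with a pseudocount of 5 and 0 to 2 when a mouse was left out. The causes were not tested.

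Some values near 0 turned sign. The log2 fold change of Fas was 0.0453 with the length trend removed and -0.51 to 0.16 over left-out mice, and that of Tnfrsf1a was 0.0371 with the GC trend removed and -0.19 to 0.0013 over left-out mice. Over left-out mice, Tnfrsf1b ran from -0.48 to 0.12, Tnfrsf21 from -0.11 to 0.62, Ngfr from -0.21 to 1.22 and Tnfrsf19 from -0.19 to 0.88. The log2 ratio of Tnfrsf1b over Tnfrsf1a differed by -0.0113 between the groups with a pseudocount of 5 and by -0.198 to 0.221 over left-out mice, and the correlation of Tnfrsf21 with luminal markers was -0.00688 with library size alone. Over left-out mice, r ran from -0.398 to 0.813 for Tnfrsf13b with the B cell score and from -0.0905 to 0.609 for Tnfrsf1a with the macrophage score. The group difference of the score ran from -0.730 to 0.0245 for B cell, -0.0859 to 0.0603 for neutrophil, -0.0571 to 0.448 for fibroblast, -1.06 to 0.836 for skeletal muscle, -0.582 to 1.89 for ventral lobe and -0.0530 to 1.03 for dorsal and anterior lobe markers. No paired analysis was possible because the groups share no animal number. Depth limits the low members: 8 did not pass the edgeR filter, while DESeq2 gave a p for 45 members and an adjusted p for 43.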
